A study of Mus musculus with 12 samples.

Results

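NF-kB is a family of transcription factors that cells hold ready in the cytoplasm and release when a toll-like receptor or cytokine receptor is engaged. The genes described here encode its subunits, the kinases and adaptor proteins that switch it on, and the inhibitors that switch it off. There were 34 of them. They were found by matching their symbols to the Ensembl gene IDs of the deposited tables, and all 34 were present among the 49585 IDs of the liver tables and the 55401 of the macrophage tables. By role they were 5 subunits, 3 cytoplasmic and 3 nuclear proteins of the IkB family, 5 ubiquitin-editing inhibitors, 2 IRAK proteins and 6 TRAF or cIAP proteins. The others were 3 parts of the IKK complex, 2 IKK-related kinases, 3 MAP3 kinases and 2 further induced genes.

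Poly(A) RNA was sequenced in 12 libraries from C57BL/6 mice, with 3 libraries in each of 4 groups. Whole liver came from mice left untreated or from mice given LPS, the bacterial lipopolysaccharide sensed by toll-like receptor 4, for 2 h. The sample titles call the untreated livers WT (wild type), and the titles of the other groups give no genotype. The macrophage groups were peritoneal macrophages that received a lentivirus for 72 h and then LPS for 2 h, with a short hairpin RNA that was either a negative control (shNC) or aimed at the long non-coding RNA Gm26917 (shGm26917). Every macrophage library thus had both lentivirus and LPS, and there was no macrophage group without LPS, without virus or with another hairpin against Gm26917. The labels do not say whether the replicates of a group came from separate animals or cultures. The p-values therefore measure only the spread between these libraries, which may be technical.

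In the textbook pathway, LPS recruits IRAK and TRAF6 to the receptor, which activate the MAP3 kinase TAK1 (Map3k7) and through it the IKK complex. IKK phosphorylates IkB proteins, these are degraded, and dimers such as p50 with RelA enter the nucleus. Among the genes these dimers switch on are their own inhibitors, IkB-alpha (Nfkbia) and A20 (Tnfaip3), so that the pathway shuts itself down within hours; macrophages of the liver and abdominal cavity are classical sites of this response.

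The dimers bind a short DNA sequence, the kB site, and many genes of this family carry it at their own promoter. RefSeq promoter windows of GRCm38.p6, which run from 250 bases before a gene's start to 50 after it, were searched on both strands for the kB consensus of 10 bases. Of the 29 genes of the family with a window, 13 held a match (44.8%), against 5.14% of all 27025 genes with a window and 4.51% of the 32851 windows. By role these were 4 of 5 ubiquitin-editing inhibitors, 2 of 3 cytoplasmic and 2 of 2 nuclear IkB genes and 2 of 3 subunits. A match was also held by 1 of 2 MAP3 kinase genes (Map3k7), 1 of 2 further induced genes (Ier3) and 1 of 6 TRAF or cIAP genes (Traf3). It was held by 0 of 2 IKK complex genes, 0 of 2 IKK-related kinases and 0 of 2 IRAK genes. Ikbkb, Nfkb1, Relb, Map3k8 and Nfkbiz had no window. The 150 bases before the start are shown for 4 inhibitors whose transcripts rose with LPS in liver and for Traf3, an adaptor that holds a match and was not called in either tissue. They read 5′ to 3′ on the strand of the gene, and capitals mark the kB match on whichever strand it lies.
Nfkbia, chr12:55492648-55492797, minus strand: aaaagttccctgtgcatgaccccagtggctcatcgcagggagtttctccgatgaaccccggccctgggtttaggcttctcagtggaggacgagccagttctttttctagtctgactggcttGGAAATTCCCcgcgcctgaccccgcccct
Nfkbie, chr17:45555550-45555699, plus strand: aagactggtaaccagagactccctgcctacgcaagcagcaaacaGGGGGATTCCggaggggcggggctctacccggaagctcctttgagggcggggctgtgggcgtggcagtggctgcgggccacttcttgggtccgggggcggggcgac
Tnip1, chr11:54962941-54963090, minus strand: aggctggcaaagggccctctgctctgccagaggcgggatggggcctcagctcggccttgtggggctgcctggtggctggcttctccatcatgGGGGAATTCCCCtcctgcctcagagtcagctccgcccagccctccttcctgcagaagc
Tnip3, chr6:65590248-65590397, plus strand: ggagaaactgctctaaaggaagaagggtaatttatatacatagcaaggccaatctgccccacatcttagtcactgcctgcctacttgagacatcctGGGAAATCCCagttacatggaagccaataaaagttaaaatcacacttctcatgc
Traf3, chr12:111166220-111166369, plus strand: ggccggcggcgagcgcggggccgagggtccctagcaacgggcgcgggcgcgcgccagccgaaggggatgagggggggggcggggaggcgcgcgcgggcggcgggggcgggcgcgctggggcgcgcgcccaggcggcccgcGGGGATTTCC

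The match began 29 bases before the start in Nfkbia, 106 in Nfkbie, 54 in Tnip3 and 10 in Traf3. In Tnip1, an inhibitor that helps A20 bind ubiquitin chains, 3 overlapping matches formed the symmetrical stretch in capitals. The Tnip3 stretch lies inside the gene as GENCODE M21 annotates it, in an intron, and the Traf3 stretch lies inside the neighbouring gene 4930595D18Rik. No annotated exon covers any of the 5 stretches. A match is a description of letters and not evidence of binding.

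Liver libraries held between 17322770 and 20913964 counts, and macrophage libraries between 15605311 and 18062853. The 34 genes together took 0.0543% to 0.0691% of the counts of an untreated liver and 0.301% to 0.462% after LPS. They took 0.757% to 0.973% in shNC and 0.513% to 0.555% in shGm26917 macrophages. Levels are given as CPM, counts scaled to a library of fixed size after TMM scaling, in the order of replicates 1, 2 and 3. A gene was called when its adjusted p in edgeR's quasi-likelihood test, over all genes of that tissue, was under 0.05. The labelled tissues matched their markers: Alb was between 36800 and 92500 CPM in liver and at most 0.469 in macrophages, while the macrophage gene Lyz2 was between 3100 and 19200 CPM in macrophages. The library shNC replicate 2 stood apart from its group. Its chi-square per gene was 210 and 248 against the other shNC libraries, which differed from each other by 30. In liver, LPS replicate 1 (83.4 and 76.7 against 22.2) and untreated replicate 3 (212 and 185 against 91.6) were also farther from their groups. Exons of 9 of the 34 genes overlap another gene, and the sources used here do not say whether counting used strand, so some reads of these may belong to the neighbour. The largest overlaps were 14.48% of the exon bases of Nfkbib (with Ccer2) and 11.58% of those of Nfkb2 (with AC114539.1).

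The liver comparison asked how the family differed 2 h after LPS. Most of it was higher: 29 of the 34 genes rose, none fell, and Irak2, Traf3, Traf6, Chuk and Map3k7 were not called. Of all genes tested in liver 45.3% were called, 23.3% higher and 22.1% lower. The median log2 fold change was 3.17 over the family and -0.06 over all 13869 genes tested. The 34 genes were chosen with earlier results of these data known. Contrasts of the family with all genes, here and in macrophages, are therefore descriptions only. The 12 genes grouped here as inhibitors were the IkB proteins, the ubiquitin-editing inhibitors and Irak3. The group takes in 3 nuclear IkB genes, and some nuclear IkB proteins help transcription rather than block it. All 12 rose, with a median of 4.01, and their summed level went from 103 to 126 CPM up to 1220 to 1600. Of the 8 IKK, IKK-related and MAP3 kinases 6 rose, with a median of 1.35. No test was made of the difference between these role groups. In edgeR 0 of the 34 were lower also at an unadjusted p under 0.05, and in DESeq2 0 were lower; only with library totals was Map3k7 called lower (-0.59, adjusted p = 0.0436).

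**Figure D1:**
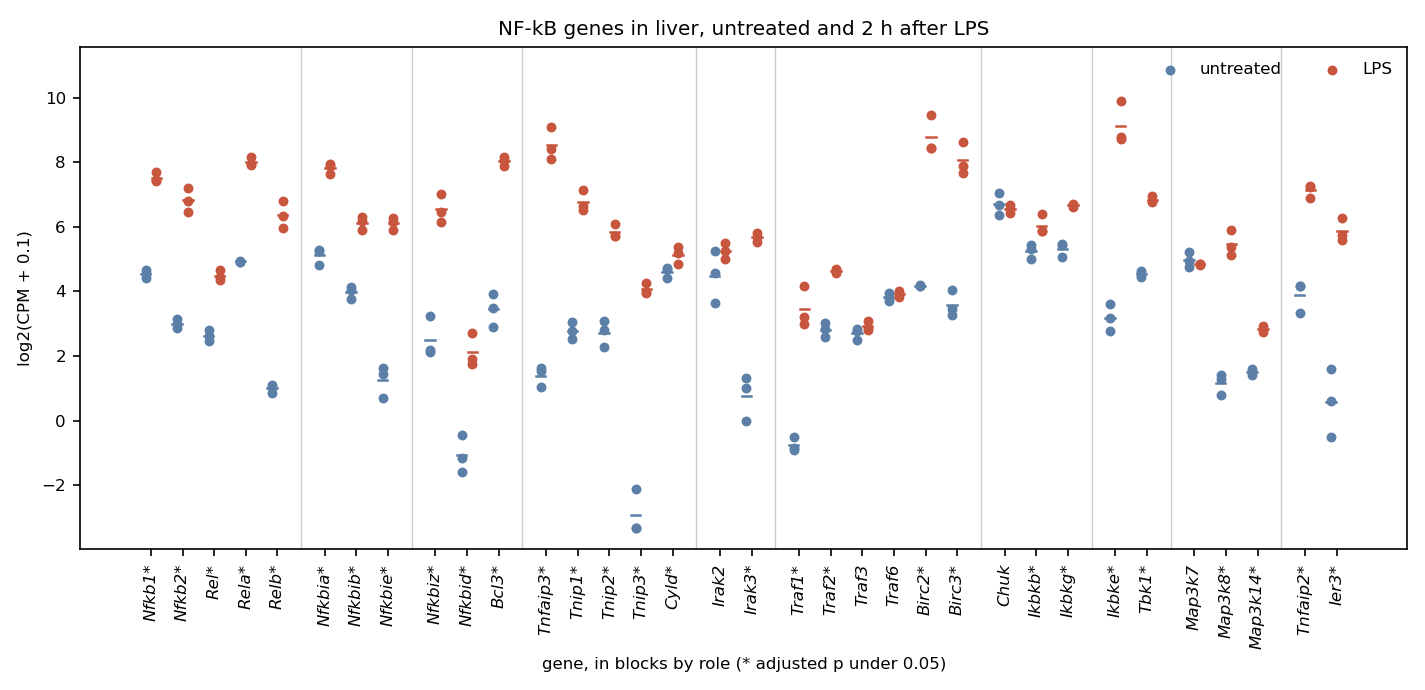
Level of each of the 34 genes in the 6 liver libraries, as log2(CPM + 0.1), in blocks by role; points are libraries, short lines are group means, and asterisks mark genes called. Asterisks stand at all 12 genes grouped as inhibitors, where 23.3% of all genes tested in liver were called higher. Chuk, Map3k7, Traf3 and Traf6 lie at about the same height in the untreated and LPS groups.

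All 5 subunit genes rose in liver. Rela, the main activating subunit, was at 30.3, 30.4 and 30.3 CPM in untreated liver and at 284, 243 and 244 CPM after LPS. The groups lay far apart, and the difference was 8.47-fold (log2 fold change 3.08 ± 0.19 SE, adjusted p = 8.91e-06). Relb, a subunit of the non-canonical pathway, was nearly silent before LPS, at 1.96, 1.71 and 2.04 CPM. It reached 111, 62.2 and 79.8 CPM with LPS, with replicate 1 highest. Its 44-fold difference (5.46 ± 0.28, adjusted p = 4.74e-06) was the largest among the subunits. Nfkb2, the precursor of p52 and RelB's usual partner, was at 8.78, 7.79 and 7.21 CPM untreated and 147, 88.1 and 111 CPM with LPS. That is 14.6-fold higher (3.86 ± 0.24, adjusted p = 1.03e-05), again with no overlap. Nfkb1, the precursor of p50, was 7.91-fold higher (2.98 ± 0.20, adjusted p = 1.15e-05). Rel, the subunit best known from lymphocytes and myeloid cells, was 3.67-fold higher (1.88 ± 0.19, adjusted p = 0.000117).

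Because the subunits rose by different amounts, their mix differed. Per kilobase of exon, Rela made up 66.6% ± 1.86 (SD, n = 3) of the summed subunit level in untreated liver and 56.5% ± 3.59 with LPS. The share of Relb was 3.30% ± 0.308 and 14.4% ± 2.09, and that of Rel was 5.49% ± 0.523 and 2.02% ± 0.0667. In untreated liver the order per kilobase was Rela (9.88 CPM per kb), then Nfkb1 (1.94 ± 0.181) and Nfkb2 (1.73 ± 0.174), which lay within their spread of each other, then Rel (0.816 ± 0.0943) and Relb (0.490 ± 0.0435). With LPS Rela still led at 83.7 ± 7.59 CPM per kb. Nfkb2 (25.2 ± 6.50) and Relb (21.7 ± 6.30) came next and overlapped between libraries, and Rel was lowest at 3.00 ± 0.343. Within libraries the order was steady. Nfkb1 had a larger share than Nfkb2 in each untreated library (13.8, 13.3 and 12% against 12.5, 11.5 and 10.8%). Nfkb2 had a larger share than Relb in each LPS library (18.5, 14.6 and 17.1% against 16.4, 12.2 and 14.5%). These orders and shares rest on the merged length of all annotated exons, 12061 bases for Nfkb1 and 3072 for Rela. That length can exceed the transcript present, so ranks between genes are uncertain. By CPM alone Nfkb1 was at 185 with LPS, above Nfkb2 (115) and Relb (84.2), while Rela still led at 257.

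The cytoplasmic IkB genes rose too. Nfkbia, the inhibitor that is degraded first and made anew by NF-kB itself, was at 27.9, 39.0 and 38.3 CPM untreated and at 237, 201 and 244 CPM with LPS. All LPS libraries were above all untreated ones, by 6.49-fold (2.70 ± 0.22, adjusted p = 3.22e-05). Nfkbie, which encodes IkB-epsilon, had only 2.96, 2.64 and 1.52 CPM before LPS. After it the level was 70.7, 59.6 and 77.4 CPM. The difference of 29.1-fold (4.87 ± 0.28, adjusted p = 7.23e-06) was larger in size than that of Nfkbia, and Nfkbib (IkB-beta) was 4.46-fold higher (2.16 ± 0.19, adjusted p = 5.43e-05). These folds were not tested against each other.

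The nuclear IkB proteins bind NF-kB dimers on DNA, and some of them help transcription rather than block it. Bcl3, which partners with p50 and p52, was at 7.42, 11.2 and 15.1 CPM untreated and 235, 288 and 268 CPM with LPS. This 23.4-fold difference (4.55 ± 0.30, adjusted p = 1.28e-05) brought Bcl3 from 12.5% ± 2.39 to 32.9% ± 4.14 of the summed IkB level per kilobase. The share of Nfkbia was 60.9% ± 2.37 untreated and 43.5% ± 2.90 with LPS, so it remained the most abundant IkB transcript per kilobase. By CPM alone Bcl3 (263 ± 26.9) was above Nfkbia (227 ± 23.1) with LPS, with overlapping libraries. Nfkbiz (IkB-zeta), needed for a late set of LPS-induced genes such as Il6, was at 4.41, 4.22 and 9.25 CPM untreated and 130, 71.0 and 87.7 CPM with LPS. It was 16.1-fold higher (4.01 ± 0.38, adjusted p = 8.21e-05), with untreated replicate 3 the highest of its group. Nfkbid stayed scarce, at 0.405 ± 0.209 CPM untreated and 4.49 ± 1.77 with LPS, a 10.9-fold difference (adjusted p = 0.000576).

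The ubiquitin-editing inhibitors remove or bind the ubiquitin chains that carry the signal, and they included the steepest changes of the family. Tnfaip3, which encodes A20, was at 2.78, 2.97 and 1.95 CPM in untreated liver. With LPS it was at 551, 274 and 341 CPM. Replicate 1 was highest, no libraries overlapped, and the difference was 151-fold (7.24 ± 0.39, adjusted p = 5.41e-06), above 99.6% of all genes tested. Tnip3, an A20-binding protein, had 3 counts in the 3 untreated libraries together and 835 in the 3 LPS libraries. It was at 15.4, 18.9 and 15.7 CPM with LPS. The ratio of the summed counts, scaled for depth, was 372 with a 95% interval of 127 to 1810, which covers counting error only. Its adjusted p was 1.30e-05. Tnip1 was 16.2-fold higher (4.02 ± 0.25, adjusted p = 1.04e-05) and Tnip2 8.72-fold higher (3.12 ± 0.25, adjusted p = 2.89e-05). Cyld, a deubiquitinase that trims the same chains, was an exception in size. It was at 25.9, 21.2 and 26.2 CPM untreated and 28.8, 41.1 and 36.6 CPM with LPS, a 1.45-fold difference (0.54 ± 0.19, adjusted p = 0.0473), and it was called in only 2 of 11 alternative analyses.

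Upstream adaptors were divided. Irak3 (IRAK-M), which lacks kinase activity and dampens toll-like receptor signalling, was at 2.41, 0.881 and 1.91 CPM untreated and 56.2, 46.0 and 51.6 CPM with LPS. It was 29.4-fold higher (4.88 ± 0.34, adjusted p = 1.50e-05). Irak2, a signalling kinase-like adaptor of the same family, was at 37.6, 23.5 and 12.4 CPM untreated and 38.3, 32.3 and 45.3 CPM with LPS. These groups overlapped, and it was not called (0.66 ± 0.35, adjusted p = 0.161). Without untreated replicate 1 it was called, at 1.10 (adjusted p = 0.0258).

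The ubiquitin ligases cIAP1 and cIAP2 join ubiquitin chains on receptor complexes. Birc2 (cIAP1) was at 17.7, 18.2 and 17.9 CPM untreated and at 701, 351 and 347 CPM with LPS. LPS replicate 1 had the highest level, and the difference was 26-fold (4.70 ± 0.34, adjusted p = 1.92e-05). Birc3 (cIAP2) was 22.8-fold higher (4.51 ± 0.35, adjusted p = 2.78e-05), and the ratio of the cIAP genes stayed alike: Birc2 was 62.1% ± 6.76 of their summed level per kilobase untreated and 64.2% ± 2.46 with LPS. Traf1, an adaptor of tumour necrosis factor receptors, rose from 0.497 ± 0.0918 to 11.6 ± 5.40 CPM (23.1-fold, adjusted p = 6.01e-05), and Traf2, which recruits cIAPs, was 3.55-fold higher (adjusted p = 0.000128). Traf6, the ubiquitin ligase closest to toll-like receptors, was at 13.8, 13.0 and 15.5 CPM untreated and 15.9, 15.4 and 14.2 CPM with LPS. Its groups overlapped (0.10 ± 0.17, adjusted p = 0.643). Traf3, which restrains the non-canonical kinase NIK, likewise overlapped (0.21 ± 0.21, adjusted p = 0.434).

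Of the 3 genes of the core IKK complex, 2 rose. Chuk (IKK-alpha) was at 102, 82.6 and 131 CPM untreated and 94.0, 86.7 and 103 CPM with LPS, with overlapping groups (-0.16 ± 0.21, adjusted p = 0.572). Ikbkb (IKK-beta), the kinase that marks IkB-alpha for degradation, was 1.73-fold higher (0.79 ± 0.21, adjusted p = 0.0152). With library totals in place of TMM it was not called (0.38, adjusted p = 0.161). Ikbkg, the scaffold NEMO, was at 43.1, 44.3 and 33.3 CPM untreated and 98.8, 102 and 104 CPM with LPS, 2.52-fold higher (1.34 ± 0.18, adjusted p = 0.000563).

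The IKK-related kinases, which phosphorylate interferon regulatory factors, rose in liver. Ikbke was at 9.01, 12 and 6.73 CPM untreated and 961, 419 and 442 CPM with LPS. The lowest LPS library was far above the highest untreated one, and the difference was 65.8-fold (6.04 ± 0.45, adjusted p = 2.19e-05). Tbk1, its close relative, was 4.92-fold higher (2.30 ± 0.17, adjusted p = 1.98e-05). Ikbke therefore went from 3.05% ± 1.21 to 49.3% ± 11.6 of the summed level per kilobase of the IKK and IKK-related genes, and Chuk from 59.2% ± 6.66 to 14.7% ± 3.38. These shares carry the same limit of merged exon length, which was 9018 bases for Ikbke and 19078 for Ikbkb.

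Among the MAP3 kinases, Map3k8 (TPL2), which is held by p105 and feeds the ERK branch, was at 2.32, 1.62 and 2.56 CPM untreated and 59.6, 34.5 and 41.2 CPM with LPS. It was 20.7-fold higher (4.37 ± 0.29, adjusted p = 1.23e-05). Map3k14, the non-canonical kinase NIK, was 2.56-fold higher (1.36 ± 0.22, adjusted p = 0.00151). Map3k7 (TAK1) was at 37.5, 27.1 and 30.5 CPM untreated and 28.0, 29.0 and 29.0 CPM with LPS, and was not called (-0.14 ± 0.18, adjusted p = 0.528). The 2 further induced genes also rose. Ier3, an early response gene, was at 2.91, 0.603 and 1.43 CPM untreated and 77.7, 48.4 and 53.5 CPM with LPS (36.2-fold, adjusted p = 8.40e-05), and Tnfaip2 was 9.35-fold higher (adjusted p = 4.14e-05).

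Of the 29 genes that rose, LPS replicate 1 was the highest library of its group in 21, and 27 of the 29 were called in all 11 alternatives, among them the fit without that library. The exceptions were Cyld and Ikbkb. Markers of other cells moved in the same livers. The summed level of the 7 neutrophil markers was 2.37 to 7.77 CPM untreated and 211 to 296 CPM with LPS, and all 5 that could be tested were higher, among them S100a8 and S100a9, while Ly6g was at 0 in every untreated liver. Of 6 macrophage markers only Itgam and Cd14 were higher. The summed Kupffer cell markers were at 202 to 246 CPM untreated and 99.7 to 284 CPM with LPS, where 1 of 5 (Marco) was called. Clec4f was at 98, 108 and 84.1 CPM untreated and at 29.5, 106 and 86.3 CPM with LPS, with LPS replicate 1 lowest. Large peritoneal macrophage markers were at 27.4 to 75.1 CPM and 157 to 237 CPM, with Gata6 and Prg4 higher. The summed erythroid markers were at 135 to 229 CPM and 483 to 885 CPM, with 2 of 3 higher. Sinusoidal endothelial markers were divided, at 96 to 152 CPM and 121 to 133 CPM in sum, with 2 of 5 higher (Stab2, Lyve1) and 2 lower (Kdr, Clec4g). Of the stellate and fibroblast markers 1 of 5 fell (Lrat), of the hepatocyte markers 1 of 6 (Cps1) and of the B cell markers 1 of 4 (Cd79b), and of the T and NK cell markers 1 of 6 rose (Cd3d). The part of these cells in the NF-kB results was not tested. In whole liver, fewer or more cells of a type and less or more RNA per cell cannot be told apart.

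The macrophage comparison asked how the same genes differed when the hairpin was aimed at Gm26917, with LPS present throughout. Here 16 of the 34 genes fell with shGm26917, none rose, and 18 were not called. Of all genes tested in macrophages 23.7% were called, 11.1% lower and 12.6% higher. The median log2 fold change was -0.46 over the family and 0 over the 12876 genes tested. Of the 12 genes grouped as inhibitors 8 fell, with a median of -1, and these 8 included all 3 nuclear IkB genes. Of the 8 kinases 2 fell, with a median of -0.43. Called in all 11 alternatives were 8 of the 16, namely Nfkbia, Nfkbiz, Rel, Tnfaip3, Tnip1, Irak3, Traf1 and Ier3. No gene was called higher by edgeR, also at an unadjusted p under 0.05 (0 of 34), or by DESeq2. The count of lower genes ranged from 8 (without shGm26917 replicate 2) and 10 (without its replicate 3) to 20 (without shNC replicate 2). With library totals in place of TMM it was 12, and the median of all genes was then 0.29. The level of Gm26917 in these libraries was not analysed here.

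**Figure D2:**
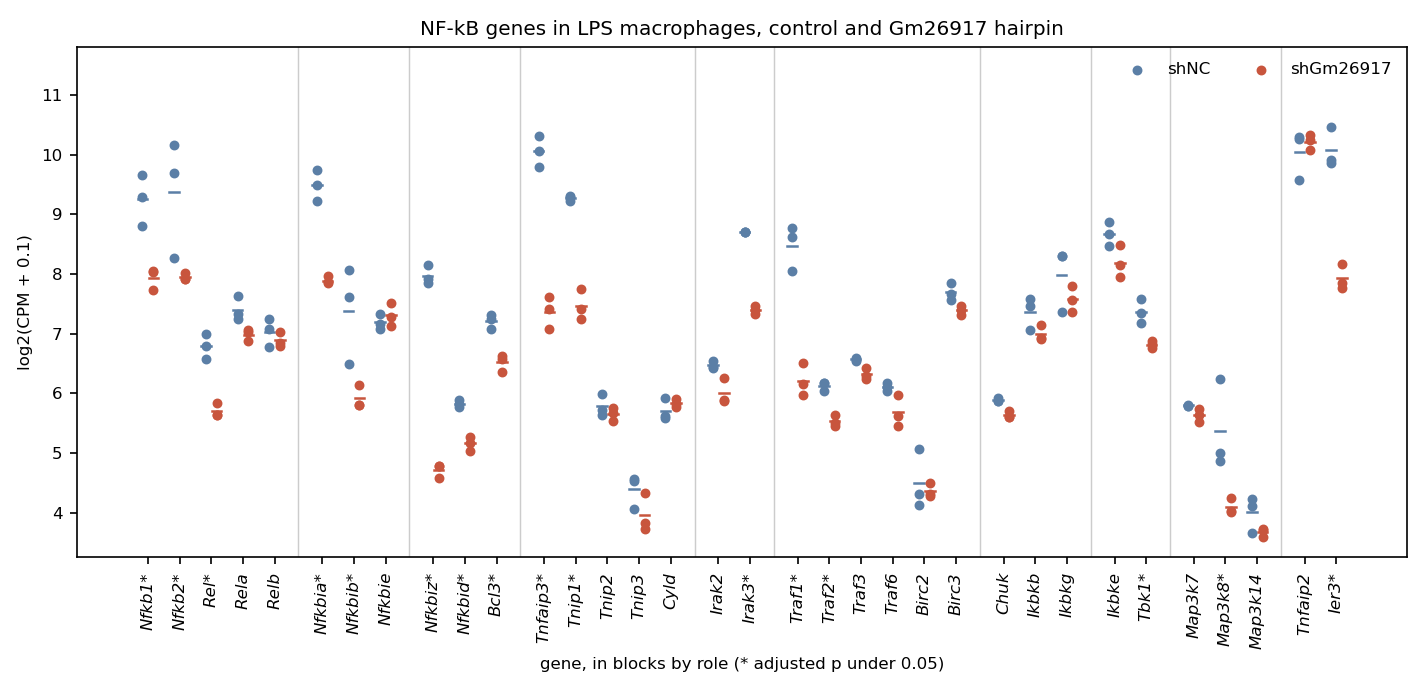
Level of each of the 34 genes in the 6 macrophage libraries, as log2(CPM + 0.1), in blocks by role; points are libraries, short lines are group means, and asterisks mark genes called. Nfkbiz, Tnfaip3, Traf1, Ier3 and Tnip1 show the widest separation. Within the shNC group, replicate 2 is the low point of Nfkb2 and Nfkbib and the high point of Map3k8.

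The deepest fall was in Nfkbiz. It was at 232, 242 and 283 CPM in shNC and at 27.4, 23.9 and 27.6 CPM in shGm26917 macrophages. Each group was tight and they lay far apart, with a 9.59-fold lower level (-3.26 ± 0.14, adjusted p = 0.0014), below all but 1.4% of the genes tested. Its share of the summed IkB level per kilobase was 7.02% ± 0.624 in shNC and 1.83% ± 0.0861 in shGm26917. The other nuclear IkB genes fell less. Bcl3 was 1.62-fold lower (-0.69 ± 0.13, adjusted p = 0.0132) and was not called without any 1 of the shGm26917 libraries (adjusted p = 0.0504 to 0.0608). Nfkbid was 1.58-fold lower (-0.66 ± 0.11, adjusted p = 0.00877), and its call was lost without shGm26917 replicate 2 (adjusted p = 0.0513).

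Nfkbia was at 598, 862 and 718 CPM in shNC and 249, 230 and 234 CPM in shGm26917. No library overlapped, and it was 3.06-fold lower (-1.61 ± 0.17, adjusted p = 0.00351). Nfkbie behaved otherwise, at 135, 161 and 143 CPM in shNC and 156, 140 and 182 CPM in shGm26917. Its groups overlapped (0.12 ± 0.14, adjusted p = 0.56), and its share of the IkB level per kilobase was 6.71% ± 0.448 in shNC and 18.3% ± 2.02 in shGm26917. Nfkbib was at 195, 89.8 and 268 CPM in shNC and 56.2, 55.7 and 70.9 CPM in shGm26917. It was called (-1.60 ± 0.38, adjusted p = 0.0266), and the call was lost in 5 of the 6 fits that leave out a library (adjusted p up to 0.106), the exception being the fit without shNC replicate 2.

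Among the ubiquitin-editing inhibitors, Tnfaip3 was at 1070, 888 and 1270 CPM in shNC and 196, 136 and 170 CPM in shGm26917. The lowest shNC library was well above the highest shGm26917 one, and A20 transcripts were 6.41-fold lower (-2.68 ± 0.22, adjusted p = 0.00233). Tnip1 was at 625, 599 and 633 CPM in shNC and 216, 152 and 170 CPM in shGm26917, again without overlap and 3.45-fold lower (-1.78 ± 0.17, adjusted p = 0.00269). The other 3 genes of this role overlapped between groups and were not called: Tnip2 (-0.14, adjusted p = 0.468), Tnip3 (-0.42, adjusted p = 0.206) and Cyld (0.11, adjusted p = 0.549).

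Of the subunits, 3 of 5 fell. Rel was at 111, 94.9 and 128 CPM in shNC and 57.2, 49.5 and 49.9 CPM in shGm26917, 2.14-fold lower (-1.09 ± 0.14, adjusted p = 0.00526). Nfkb1 was at 629, 446 and 806 CPM in shNC and 265, 212 and 263 CPM in shGm26917, 2.54-fold lower (-1.35 ± 0.24, adjusted p = 0.0116). The shNC values of Nfkb1 were spread widely but did not reach down to the other group, and its call was lost without shGm26917 replicate 2 (adjusted p = 0.0611) or 3 (adjusted p = 0.0539). Nfkb2 was at 825, 308 and 1140 CPM in shNC and 243, 242 and 260 CPM in shGm26917. Its fall of 3.05-fold (-1.61 ± 0.44, adjusted p = 0.0397) came with a shNC group in which replicate 2 lay far below the others, and it was called in only 4 of 11 alternatives. With the replicate number as a block its adjusted p was 0.0547, and with library totals 0.0552. Of the 6 fits that leave out a library, only that without shNC replicate 2 called it (adjusted p in the others 0.0901 to 0.132).

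Rela and Relb were not called. Rela was at 161, 152 and 198 CPM in shNC and 118, 133 and 130 CPM in shGm26917 (-0.43 ± 0.14, adjusted p = 0.069). The groups did not overlap, and it was called lower with DESeq2 (adjusted p = 0.0288) and without shNC replicate 2 (adjusted p = 0.0161). Relb was at 135, 110 and 152 CPM in shNC and 111, 115 and 131 CPM in shGm26917, with overlap (-0.16 ± 0.15, adjusted p = 0.489). The mix of subunits differed accordingly: per kilobase Relb was 11.3% ± 2.92 of the subunit level in shNC and 19.9% ± 0.952 in shGm26917, and Nfkb2 was 48.5% ± 12.2 and 35.3% ± 0.162. In shNC replicate 2 the share of Nfkb2 was 34.5%, close to the shGm26917 libraries.

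**Figure D3:**
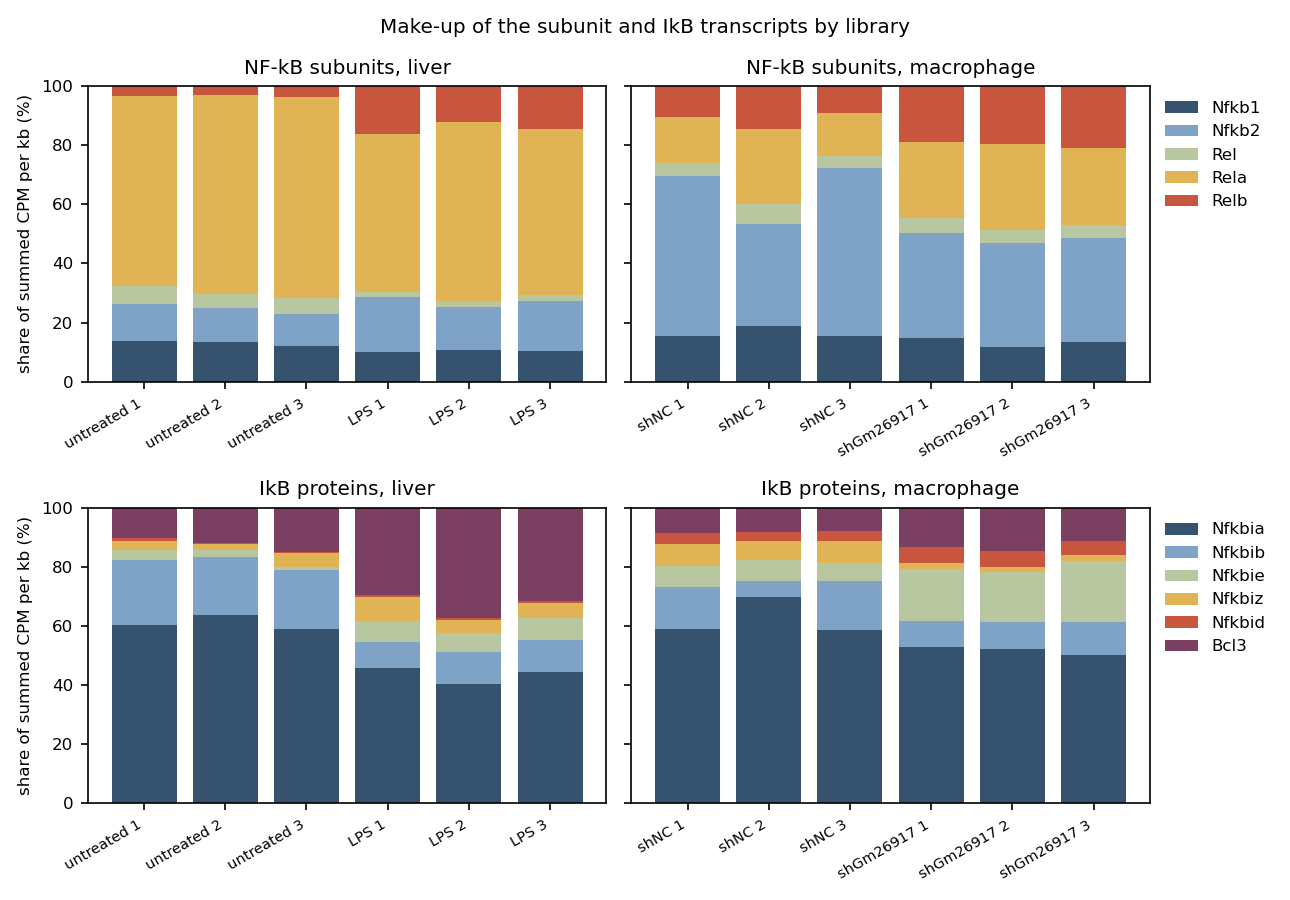
Share of each transcript in the summed CPM per kb of the 5 subunit genes (top) and the 6 IkB genes (bottom), in percent, for each liver library (left) and macrophage library (right). In liver the bands of Relb and Bcl3 widen with LPS; in macrophages the band of Nfkbiz narrows from 7.02% to 1.83% and that of Nfkbie widens from 6.71% to 18.3%.

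The adaptors were again divided. Irak3 was at 416, 418 and 417 CPM in shNC and 176, 161 and 168 CPM in shGm26917. Both groups were tight, and it was 2.47-fold lower (-1.31 ± 0.11, adjusted p = 0.00242). Irak2 was at 86.0, 93.2 and 87.1 CPM in shNC and 76.6, 58.3 and 59.4 CPM in shGm26917. The groups did not overlap, but it missed the threshold (-0.45 ± 0.14, adjusted p = 0.0537) and was called in 3 of 11 alternatives. Traf1 was at 392, 266 and 435 CPM in shNC and 91.2, 62.6 and 71.0 CPM in shGm26917, a 4.86-fold lower level (-2.28 ± 0.24, adjusted p = 0.0035) without overlap. It made up 53.3% ± 6.85 of the summed TRAF level per kilobase in shNC and 24.1% ± 2.15 in shGm26917. Traf2 was 1.52-fold lower (-0.60 ± 0.10, adjusted p = 0.0107), and this call was lost with library totals (adjusted p = 0.0605) and without shGm26917 replicate 1 or 2 (adjusted p = 0.0504 and 0.06). Traf3 (-0.24), Traf6 (-0.41), Birc2 (-0.19) and Birc3 (-0.30) were not called, with adjusted p between 0.1 and 0.617.

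No gene of the IKK complex was called in macrophages. Chuk was at 60.3, 58.8 and 58.3 CPM in shNC and 52.4, 48.8 and 48.8 CPM in shGm26917 (-0.24 ± 0.09, adjusted p = 0.105). Ikbkb (-0.39, adjusted p = 0.135) and Ikbkg (-0.46, adjusted p = 0.252) overlapped between groups. Without shNC replicate 2, Ikbkb (-0.55, adjusted p = 0.00846) and Ikbkg (-0.72, adjusted p = 0.00611) were both called lower. Tbk1 was at 145, 192 and 163 CPM in shNC and 113, 108 and 117 CPM in shGm26917, 1.48-fold lower (-0.56 ± 0.14, adjusted p = 0.0293). It was called in 5 of 11 alternatives, and was lost with the replicate number as a block (adjusted p = 0.0566), with library totals (adjusted p = 0.156) and without shNC replicate 3 or any 1 of the shGm26917 libraries (adjusted p = 0.0675 to 0.119). Ikbke was at 406, 467 and 354 CPM in shNC and 247, 357 and 283 CPM in shGm26917, overlapping narrowly and not called (-0.47 ± 0.19, adjusted p = 0.113).

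Map3k8 was at 29.2, 75.5 and 32.1 CPM in shNC and 16.1, 16.3 and 18.9 CPM in shGm26917. It was 2.67-fold lower (-1.41 ± 0.37, adjusted p = 0.0365), with shNC replicate 2 more than the sum of the others of its group. The call was lost with library totals (adjusted p = 0.0552) and without any 1 of the shGm26917 libraries (adjusted p = 0.105 to 0.124). Map3k7 (-0.16, adjusted p = 0.296) and Map3k14 (-0.34, adjusted p = 0.21) were not called. Ier3 was at 933, 963 and 1410 CPM in shNC and 287, 218 and 232 CPM in shGm26917. It was 4.48-fold lower without overlap (-2.16 ± 0.22, adjusted p = 0.00342). Tnfaip2, another abundant LPS-induced gene, was at 1230, 762 and 1260 CPM in shNC and 1290, 1080 and 1210 CPM in shGm26917, and was not called (0.14 ± 0.23, adjusted p = 0.692).

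**Figure D4:**
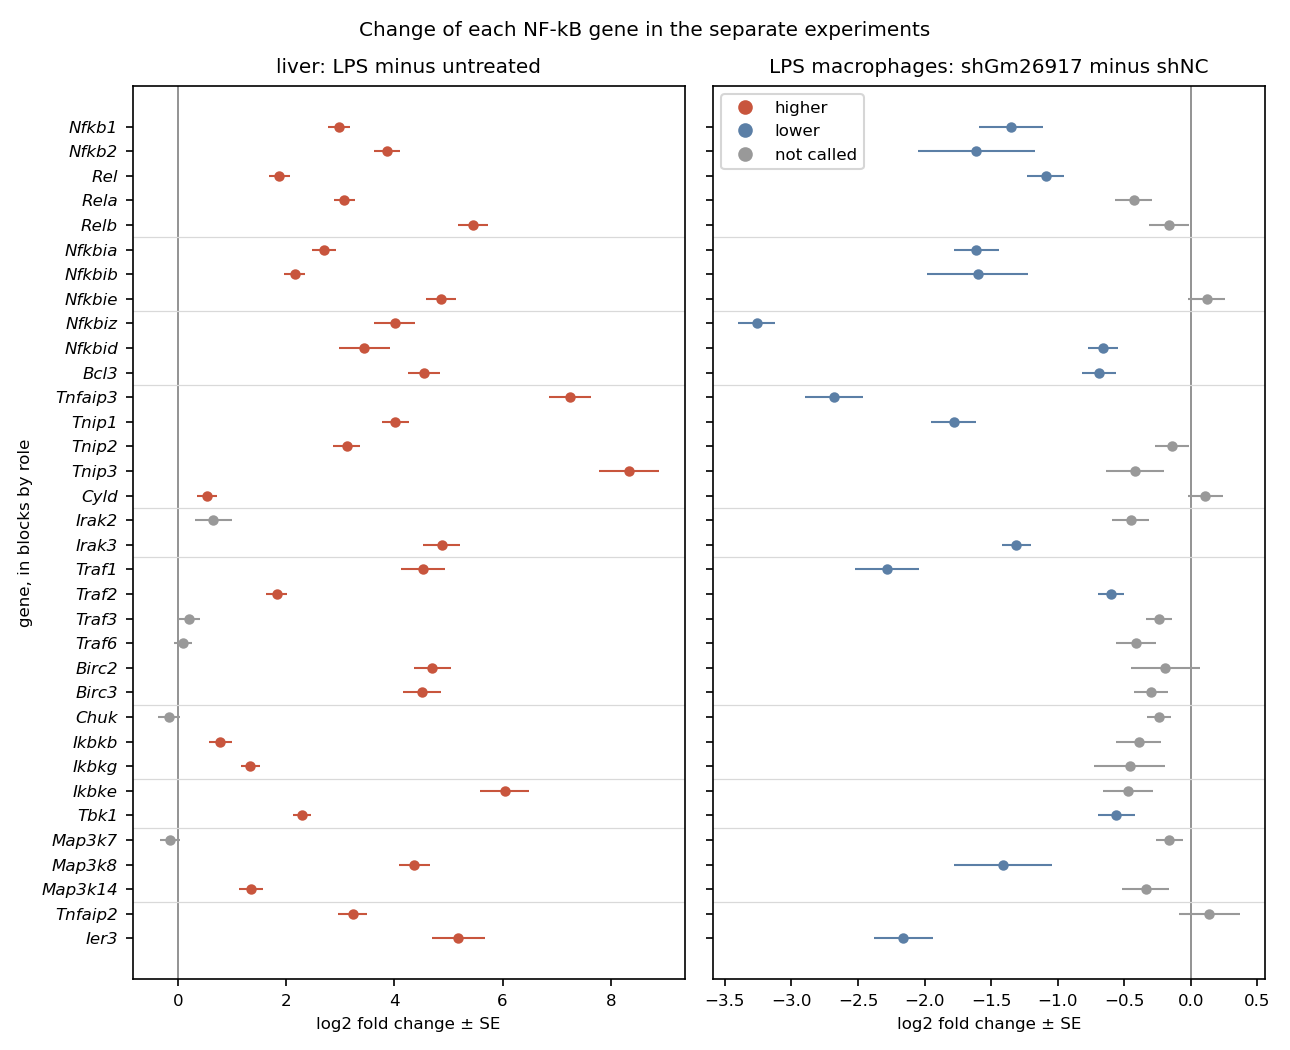
Log2 fold change ± SE of each gene with LPS in liver (left) and with shGm26917 in LPS macrophages (right), in blocks by role; red points were called higher, blue points lower, grey points were not called. The horizontal scales differ: liver changes reach 8.34 (Tnip3), macrophage changes reach -3.26 (Nfkbiz).

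The liver and macrophage experiments share no samples and were fitted apart. The 16 genes that fell with shGm26917 were all among the 29 that rose with LPS in liver, 13 of the 29 were not called in macrophages, and 5 genes were called in neither. The shared 16 are 100% of the genes lower in macrophages and 55.2% of those higher in liver, in a family of which 85.3% rose in liver. Over the 11400 genes tested in both, 24.1% rose in liver, and the 653 genes that did so and fell in macrophages were 50.2% of those lower in macrophages and 23.8% of those higher in liver. The 13 included Relb, Rela, Nfkbie, Ikbke, Birc2, Birc3, Tnfaip2 and Tnip3. Relb was 44-fold higher with LPS in liver and had a log2 fold change of -0.16 ± 0.15 in macrophages. Nfkbiz was 16.1-fold higher in liver and 9.59-fold lower in macrophages. The 5 called in neither were Irak2, Traf3, Traf6, Chuk and Map3k7. The magnitude in a tissue and that in cultured cells were not tested against each other.

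Set against the promoter search, 11 of the 13 genes with a kB match rose in liver (median log2 fold change 3.86), as did 13 of the 16 with a window and no match (median 2.69). Over all genes tested in liver that had a window, 28.9% of the 644 with a match and 22.5% of the 9581 without were called higher. In macrophages 8 of the 13 with a match and 5 of the 16 without fell with shGm26917. Over all genes tested there that had a window, 15.5% of the 587 with a match and 11% of the 8863 without were called lower. The stretches of Nfkbia and Tnip1 shown above belong to genes that rose in liver and fell with shGm26917, those of Nfkbie and Tnip3 to genes that rose in liver and were not called in macrophages, and that of Traf3 to a gene called in neither. Traf1, one of the deepest falls, held no match in its window.

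Other genes of the pathway lie outside the 34. Of 42 tested in liver 16 rose and 8 fell (median 0.23), where 23.3% of all genes were called higher and 22.1% lower. Rnf31, the catalytic part of the linear ubiquitin ligase LUBAC, rose from 13.1 ± 0.595 to 175 ± 23.1 CPM (13.3-fold, adjusted p = 5.40e-06), and Otulin, which removes linear chains, was 2.98-fold higher (adjusted p = 0.00122). Usp18, an interferon-induced protease, was 43.5-fold higher (adjusted p = 1.18e-05) and Nlrc5, which drives MHC class I genes, 16.4-fold higher (adjusted p = 7.23e-06). Card10, a scaffold used outside the immune system, fell from 12.8 ± 3.26 to 1.74 ± 0.296 CPM (adjusted p = 8.42e-05), and the ubiquitin ligase Itch was 2.90-fold lower (adjusted p = 0.000217). Btrc, part of the ligase that destroys phosphorylated IkB, was 1.89-fold lower (adjusted p = 0.0137).

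In macrophages 11 of the 44 fell and 4 rose (median -0.22), where 11.1% of all genes were called lower and 12.6% higher. Peli1, a ubiquitin ligase of IRAK complexes, was at 83.5, 87.9 and 118 CPM in shNC and 23.2, 23.9 and 20.5 CPM in shGm26917 (4.28-fold lower, adjusted p = 0.00233). Tab2, the ubiquitin-binding partner of TAK1, was 2.16-fold lower (adjusted p = 0.0075), and Irak1, the kinase that acts before TRAF6, was 1.38-fold higher (adjusted p = 0.0266). Usp18 was at 59.6, 588 and 177 CPM in shNC and 17.9, 14 and 13.8 CPM in shGm26917 (adjusted p = 0.0155), with shNC replicate 2 the highest by far. S100a8 was also highest there, at 193 CPM against 23.2 and 21.7 CPM in the other shNC libraries.

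Among 19 well-known targets of NF-kB, 16 of the 17 tested in liver rose (median 5.36), where 23.3% of all genes were called higher. These targets were listed because they are known to respond to NF-kB. Tnf was at 0, 0.185 and 0.0868 CPM untreated and 29.6, 31.8 and 23.5 CPM with LPS (adjusted p = 7.19e-06). The chemokine gene Ccl2 was 498-fold higher (adjusted p = 1.42e-06). Nos2, inducible nitric oxide synthase, had 0 counts in untreated liver and 478 with LPS, at least 213-fold higher when 3 counts over the group are taken as the floor (adjusted p = 1.97e-05). In macrophages 14 of the 18 tested fell and Icam1 rose (median -3.76), where 11.1% of all genes were called lower and 12.6% higher. Il6 was at 1770, 273 and 3710 CPM in shNC and 30.5, 13.0 and 26.0 CPM in shGm26917 (82.8-fold lower, adjusted p = 0.00901), with shNC replicate 2 lowest of its group. Tnf was 3.95-fold lower (adjusted p = 0.011), and Icam1, an adhesion molecule, was 1.83-fold higher (adjusted p = 0.0191). In the same libraries, of 6 macrophage markers, Lyz2, Csf1r and Cd68 were higher with shGm26917 and Cd14, the LPS co-receptor, was lower. Adgre1 (-0.27, adjusted p = 0.528) and Itgam (0.25, adjusted p = 0.298) were not called. Alox15, the only 1 of 5 large peritoneal macrophage markers called, was at 104, 12.8 and 109 CPM in shNC and 588, 1240 and 824 CPM in shGm26917 (adjusted p = 0.0218). Of 4 Kupffer cell markers tested, Vsig4 was higher (4.97-fold, adjusted p = 0.014). The summed B cell markers were at 60.9 to 155 CPM in shNC and 41.3 to 115 CPM in shGm26917, and T and NK cell markers were at most 1.01 CPM. Stellate and fibroblast markers summed to 22 to 26.1 CPM in shNC and 3.5 to 5.1 CPM in shGm26917, and the 3 that could be tested were not called. The shNC sum was mostly Pdgfrb in replicates 1 and 3 (19.9 and 24.1 CPM) and mostly Dcn in replicate 2 (23.2 CPM). Col1a1 went the other way, at 0.427 ± 0.274 CPM in shNC and 1.08 ± 0.549 in shGm26917. Of the 7 neutrophil markers 3 could be tested, and they were divided. Mmp8 was higher (1.63, adjusted p = 0.0198). S100a8 had a lower mean with shGm26917 (11.6 ± 1.46 CPM against 79.3 ± 98.5) but was not called (-2.77, adjusted p = 0.0646). Csf3r was not called either (0.2, adjusted p = 0.695). Ly6g and Retnlg were at 0 in all 6 libraries. The part of these differences in the NF-kB results was not tested.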

How the data were processed

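The authors deposited raw counts, with 1 table of Ensembl gene IDs and whole numbers for each library, per the file headers. STAR, featureCounts 1.6.3 and mm10 stand in the submitters' processing notes. For parameters, annotation release, strand setting and the word combined in the macrophage headers, details were not given in the sources used here. The 34 genes and the other lists were chosen with earlier results of these data known. Symbols came from a table of gene names, and positions and merged exon lengths from GENCODE M21 (GRCm38).

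Each tissue was fitted alone in edgeR 4.0.16 (R 4.3.3): filterByExpr, TMM, quasi-likelihood F test, 2-sided, Benjamini-Hochberg adjustment over all genes tested (13869 in liver, 12876 in macrophages). All 34 genes passed the filter in both tissues. SE was computed as the size of the log2 fold change over the root of its F statistic. The fit was tested on simulated data. Such a fit can miss true changes, so a gene that was not called is not shown to be unchanged. Library totals ranged from 15605311 to 20913964 counts. No 2 libraries of a group agreed within sampling noise. Alternatives were library totals, DESeq2 1.42.0, no filter, at least 1 CPM in 3 libraries, a replicate block, and leaving out each library. All 34 genes could be named; of the other pathway and target lists, up to 5 called genes with the largest change in each direction, plus Tnf and Il6. Marker genes of other cell types were named after their values were seen. With 3 against 3 an exact permutation test cannot go below 0.1, so none was used. Gm26917 was not analysed here in macrophages.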

Additional observations from a re-analysis of the deposited data

How the results depend on the processing

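In liver the number of the 34 genes called higher was 27 to 29 in all 11 alternatives, and in macrophages the number called higher with shGm26917 was 0 in all of them. Scaling by library totals moved the most values. With it the median of all genes was -0.49 in liver and 0.29 in macrophages, and the share of called genes that were higher went from 51.3% to 26.8% in liver and from 53.1% to 79.8% in macrophages. Calls over all genes were then 1943 higher and 5305 lower in liver, and 3135 higher and 794 lower in macrophages. In liver 1 gene, Map3k7, was called lower. Uncalled genes changed sign with library totals: in liver Traf3 (-0.22) and Traf6 (-0.33), in macrophages Relb (0.14), Tnip2 (0.15), Traf3 (0.04), Birc2 (0.10), Chuk (0.05) and Map3k7 (0.13). When each library was left out in turn, Chuk ranged from -0.33 to 0.03 in liver (positive without untreated replicate 3), and in macrophages Birc2 from -0.39 to 0.13 and Tnfaip2 from -0.08 to 0.25 (both of opposite sign without shNC replicate 2). Leaving out 1 library gave 8 to 20 of the 34 genes lower in macrophages, 479 to 2715 of all genes higher and 360 to 2521 lower; the most calls came without shNC replicate 2 and the fewest without shGm26917 replicate 2. Low counts limit Tnip3 and Nfkbid in untreated liver.

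With the replicate number as a block, 28 of the 34 genes were higher in liver and 14 lower in macrophages. Same-numbered libraries correlated at 0.13, 0.07 and -0.08 in liver and at -0.06, 0.27 and 0.23 in macrophages. The best partner had the same number for untreated replicates 1 and 2 and for shNC replicates 2 and 3. It had another number for untreated replicate 3 and shNC replicate 1. With 3 replicates these values cannot tell whether same-numbered samples share more than a number.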
